A study of Mus musculus with 46 samples.

Results

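Neuregulin, ErbB and neurotrophin genes were described in 46 single oriens-lacunosum moleculare (OLM) interneurons, as the share of cells with a read, the level in the cells with reads and the detection of several genes in 1 cell. The 8 genes were named one by one, with earlier results of these data known, and by no rule on their values. They were the receptor genes Erbb4 and Erbb3, the ligand genes Nrg1, Nrg2 and Nrg3, the neurotrophin receptor genes Ntrk2 and Ntrk3, and the neurotrophin gene Bdnf. All 8 were among the 22800 genes counted by symbol.

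OLM cells are dendrite-targeting inhibitory neurons of the hippocampal stratum oriens. Of the cells, 23 came from an Htr3a Cre driver line and 23 from an Sst Cre driver line of mice at postnatal day 21 to 30. Their cytosol was drawn into a patch-clamp pipette, and the labels state that each cell was an OLM cell and passed quality control. A driver line marks cells in which its promoter is or has been active, so each group is the OLM cells that 1 driver labels. The comparison asks how OLM cells from the 2 lines compare in their transcripts. A sample is a single cell here and no label ties cells to mice, so nothing says that cells of a line came from separate animals. Each line therefore counted as 1 sample. No test between lines was possible, and all intervals cover counting error only.

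Neuregulins are growth factors made mostly as membrane-bound precursors that proteases cut. They bind ErbB3 and ErbB4, receptor tyrosine kinases, and in forebrain ErbB4 is known above all from inhibitory interneurons, where neuregulin signalling bears on migration and on synapse formation. Neurotrophins act through the Trk receptor tyrosine kinases: Bdnf encodes brain-derived neurotrophic factor, the ligand of TrkB (Ntrk2), and TrkC (Ntrk3) is the receptor of neurotrophin 3. Ntrk2 and Ntrk3 each give rise to full-length receptors and to forms without the kinase, and the counts per gene do not separate them.

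Htr3a-line cells had 3391829 to 26136222 assigned reads and a median of 8169 genes with a read (range 3350 to 12693). Sst-line cells had 5639490 to 31386369 reads and a median of 6569 genes (range 3225 to 8774). The interneuron markers Sst, Gad1 and Gad2 had reads in 46 of 46 cells, and Chrna2, a nicotinic receptor gene used to mark OLM cells, in 10 Htr3a-line and 6 Sst-line cells. Standing apart were 4 cells with a summed level of GABAergic markers, among them Gad1, Gad2 and Slc32a1, under 1000 CPM, reads per 1000000 assigned reads: Htr3a line replicates 10, 11 and 20, and Sst line replicate 23. Htr3a line replicate 4 kept a sum of 2508 CPM but had 4 Gad1 reads. Microglial markers summed to a median of 477 CPM (range 0 to 8176) for Htr3a-line and 674 CPM (range 0.0536 to 9702) for Sst-line cells, and their part in any result was not tested.

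Detection ranged from nearly every cell to a single one. Ntrk2 had a read in 43 of 46 cells. Nrg3 (30 cells), Nrg1 (26), Ntrk3 (18) and Nrg2 (15) were read in some cells and missed in others, and Erbb4 in 7. Erbb3 and Bdnf had reads in 1 cell each. In no gene did the 95% intervals of the shares of the 2 lines stand apart. The share of all genes for which they do was not counted, so this describes the listed genes only. A cell held reads of 0 to 7 of the genes, with a median of 4 in the Htr3a line and 3 in the Sst line. The cell with none was Htr3a line replicate 20, the library with the fewest reads, and the cell with 7 was Htr3a line replicate 10, the one with the most genes read.

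**Figure D1:**
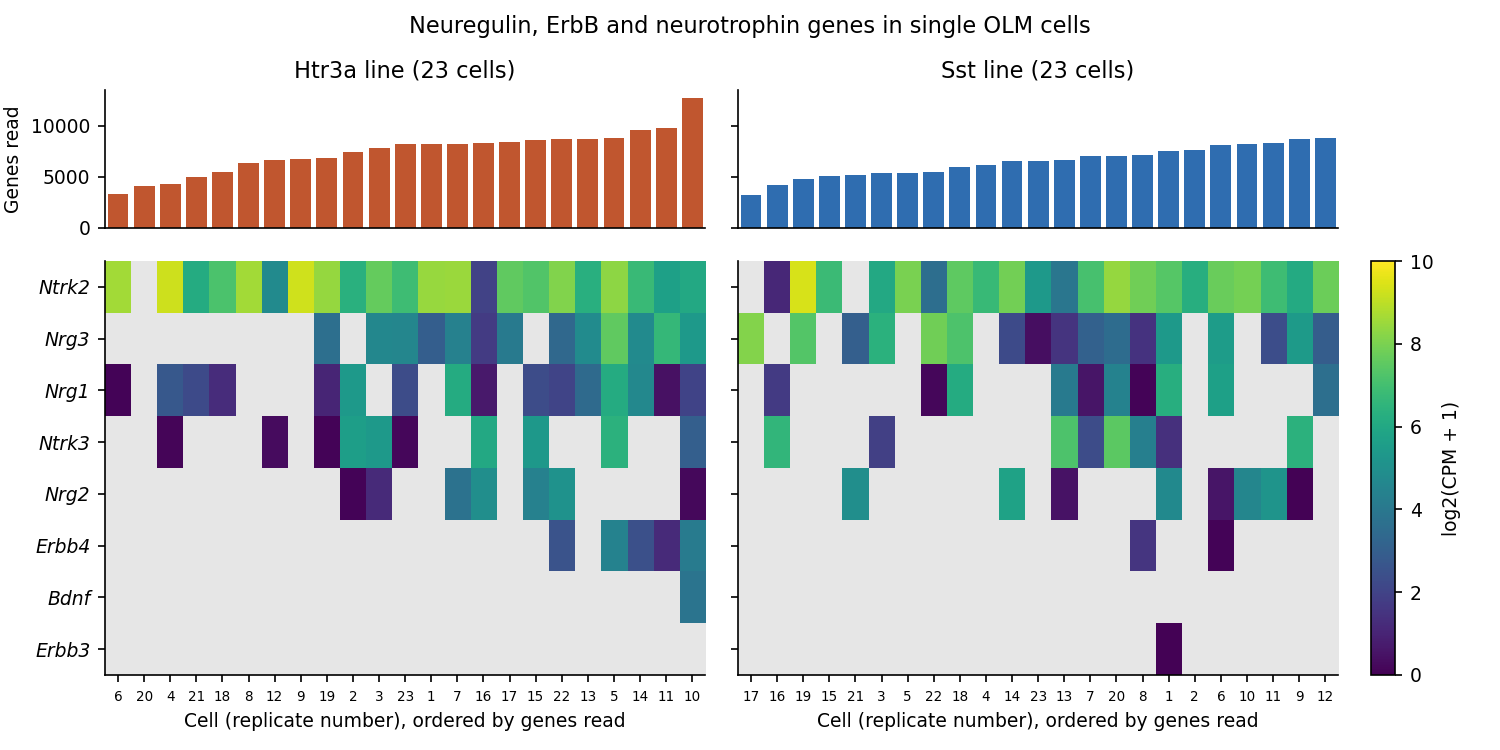
Each column is 1 cell, ordered within its line by the number of genes read (bars), and each row a gene, coloured by log2(CPM + 1), with grey for no reads. The Ntrk2 row is coloured in 43 of 46 cells, while the Erbb4 row is coloured in 5 Htr3a-line cells towards the right, where 8670 to 12693 genes were read, and in 2 Sst-line cells.

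Erbb4, the receptor gene of the group best known from interneurons (chromosome 1, 68032186 to 69108059, minus strand, GRCm38), had reads in 21.7% of the Htr3a line, 5 of 23 cells (exact Clopper-Pearson 95% interval 7.46% to 43.7%), and in 8.70% of the Sst line, 2 of 23 cells (1.07% to 28.0%). The Htr3a-line values were 20.7 CPM in replicate 5, 16.7 in replicate 10, 4.89 in replicate 22, 4.44 in replicate 14 and 1.28 in replicate 11. The Sst-line values were 1.93 CPM in replicate 8 and 0.0681 CPM, a single read, in replicate 6. Thus 4 of the 5 Htr3a-line positive cells lay above both Sst-line ones, replicate 11 lay between them, and the other 39 cells were at 0. Replicates 10 and 11 are among the cells with a low GABAergic sum, and without the 4 such cells Erbb4 was read in 3 of 20 Htr3a-line and 2 of 22 Sst-line cells.

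The cells with Erbb4 reads were rich in detected genes. In the Htr3a line they had 8670 to 12693 genes read, and the 18 cells without Erbb4 had 3350 to 8716. Over both lines the medians were 8793 genes with and 6690 without Erbb4. At a fixed depth of 5000000 reads, Erbb4 was still read in 5 of 22 Htr3a-line cells and in 1 of 23 Sst-line cells, where the median number of genes was 7901.5 and 6477. Among markers of other cells, the 7 cells had a median microglial sum of 1572 CPM (68.2 to 8176) against 344 CPM (0 to 9702) in the 39 others. Their astrocyte sum was 207 CPM (0.204 to 349) against 60.1 CPM (0.0596 to 1383), and their GABAergic sum 1659 CPM (293 to 3537) against 3946 CPM (527 to 7090). The glutamatergic sum was 84.1 CPM (22.4 to 274) against 37.4 CPM (0 to 270), and the oligodendrocyte sum 92.1 CPM (1.29 to 733) against 191 CPM (0.144 to 13314). The part of these differences in the detection of Erbb4 was not tested.

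Erbb3, the receptor of neuregulins that needs a partner to signal and is typical of glia, had 1 read in 46 cells, in Sst line replicate 1, at 0.0354 CPM. It had no read in the Htr3a line, where the limit of 3 cells allows up to 13% of 23. In the cell with that read the oligodendrocyte markers summed to 556 CPM, rank 13 of 46, and those of oligodendrocyte precursors to 0. The highest sum of oligodendrocyte markers in a cell was 13314 CPM for the Htr3a line against 5321 CPM for the Sst line, with the defining genes Cldn11 and Opalin at 0 in all cells.

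**Figure D2:**
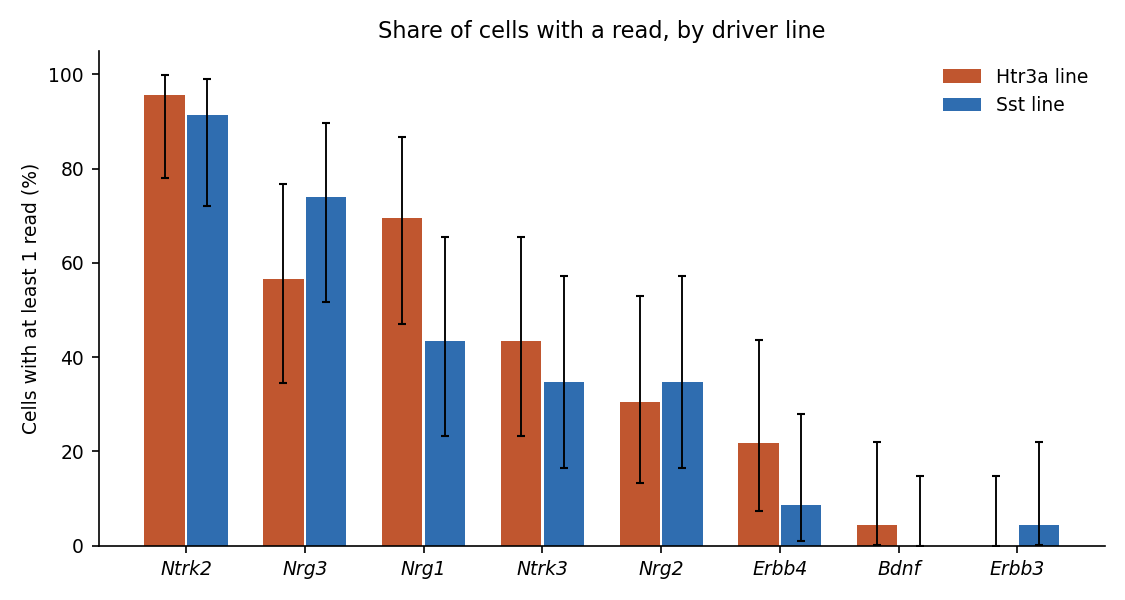
Bars give the percentage of the 23 cells of a line with at least 1 read of a gene, and lines the exact Clopper-Pearson 95% intervals. The intervals of the lines overlap for each gene. Nrg1 has the widest gap in favour of the Htr3a line (69.6% against 43.5%) and Nrg3 the widest in favour of the Sst line (73.9% against 56.5%).

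Nrg1, the founding neuregulin gene (chromosome 8, 31814551 to 32884029, minus strand), had reads in 69.6% of the Htr3a line, 16 of 23 cells (47.1% to 86.8%), and in 43.5% of the Sst line, 10 of 23 cells (23.2% to 65.5%). In Htr3a-line cells with reads its level was 0.0601 CPM at the lowest, 3.84 at the median and 70.7 at the highest, and in the Sst line 0.0585, 14.1 and 76.3 CPM. The ranges overlapped almost fully: more Htr3a-line cells had a read, while the median of the fewer Sst-line cells was higher. At 10 CPM or more the counts of cells were 5 and 6. Mean log2(CPM + 1) was 1.87 ± 2.06 (SD between cells) in the Htr3a line and 1.43 ± 2.29 in the Sst line, a difference of -0.44, smaller than either SD. It was -0.66 without Sst line replicate 1 and -0.25 without Htr3a line replicate 5. At a fixed depth of 5000000 reads the cells with Nrg1 numbered 15 of 22 and 9 of 23. CPM of summed counts was 11.2 against 11.5, and 6.15 in the Sst line without its replicate 1. Of the exons, 482 bases (4.66%) lie opposite a long noncoding RNA gene, Gm26578, whose reads cannot be told apart if strand was not used.

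Nrg2 (chromosome 18, 36017652 to 36197380, minus strand), a close relative of Nrg1, had reads in 30.4% of the Htr3a line, 7 cells (13.2% to 52.9%), and 34.8% of the Sst line, 8 cells (16.4% to 57.3%). Levels in those cells were 0.0721, 12.5 and 32.9 CPM (lowest, median, highest) in the Htr3a line and 0.0441, 24.6 and 52.7 CPM in the Sst line. The gene stood at 10 CPM or more in 9 of its 15 cells, and the lines overlapped. The line difference of mean log2(CPM + 1) was 0.29 (0.85 ± 1.76 against 1.14 ± 2.12) and was 0.08 without Sst line replicate 14 and 0.48 without Htr3a line replicate 22.

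Nrg3 (chromosome 14, 38368952 to 39473088, minus strand), a ligand of ErbB4 enriched in the nervous system, had reads in 73.9% of the Sst line, 17 of 23 cells (51.6% to 89.8%), and in 56.5% of the Htr3a line, 13 of 23 cells (34.5% to 76.8%). In the Htr3a line the cells with reads had 2.36, 23.0 and 190 CPM (lowest, median, highest), and in the Sst line 0.284, 10.7 and 281 CPM. The Sst line held both the lowest cells and 4 of the 5 cells at 100 CPM or more, and at 10 CPM or more the counts were 10 and 9. The line difference of mean log2(CPM + 1) was 0.65 (2.55 ± 2.55 against 3.21 ± 2.87), within the SD between cells. It was 0.43 without Sst line replicate 17 and 1.0 without the 4 cells with a low GABAergic sum. At 5000000 reads the cells with Nrg3 numbered 13 of 22 and 16 of 23. CPM of summed counts was 23.2 (Htr3a) and 45.1 (Sst), a log2 ratio of 0.93 with 1 added to each sum. It ranged from 0.47 without Sst line replicate 17 to 1.44 without Htr3a line replicate 5.

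Ntrk2, which encodes TrkB (chromosome 13, 58806569 to 59133970, plus strand), had reads in 95.7% of the Htr3a line, 22 cells (78.1% to 99.9%), and 91.3% of the Sst line, 21 cells (72.0% to 98.9%). Its level in those cells was 2.90, 171 and 623 CPM (lowest, median, highest) in the Htr3a line and 1.16, 136 and 672 CPM in the Sst line. Both lines spanned the same range, and 15 and 14 cells reached 100 CPM. The difference of mean log2(CPM + 1) was -0.80 (6.88 ± 2.22 against 6.08 ± 2.62), smaller than the SD between cells. It was -1.21 without the 4 cells with a low GABAergic sum, -1.11 without Htr3a line replicate 20 alone and -0.52 without Sst line replicate 17. CPM of summed counts was 210 and 162.

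The 3 cells without Ntrk2 were Htr3a line replicate 20 (3391829 reads, 4064 genes) and Sst line replicates 17 (3225 genes, the fewest of all cells) and 21 (5231 genes). All 3 had fewer genes read than the median of 7108 in cells with Ntrk2. Htr3a line replicate 4, the cell with 4 Gad1 reads, had the third highest level, 609 CPM, from 4337 genes read. Astrocytes are known to carry the form of TrkB without the kinase. All 10 astrocyte markers had a read in some cell, 10 of them in the Htr3a and 8 in the Sst line. The most frequent were Glul (21 Htr3a-line and 22 Sst-line cells), which neurons can also carry, Slc1a2 (12 and 10) and S100b (8 and 8), and the rarest Gja1 and Fgfr3 (2 and 1 each), Aqp4 (2 and 0) and Gjb6 (1 and 0). The Spearman correlation of Ntrk2 with the summed level of 10 astrocyte markers was 0.12 over the 46 cells, where both values of a cell come from 1 library at 1 depth. The median of this sum was 87.8 CPM for Htr3a-line cells (0.360 to 1383) against 55.8 CPM for Sst-line cells (0.0596 to 445), and its part in the Ntrk2 level was not tested.

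Ntrk3, which encodes TrkC (chromosome 7, 78175959 to 78738012, minus strand), had reads in 43.5% of the Htr3a line, 10 cells (23.2% to 65.5%), and 34.8% of the Sst line, 8 cells (16.4% to 57.3%). The cells with reads had 0.0797, 23.2 and 85.9 CPM (lowest, median, highest) in the Htr3a line and 1.59, 52.2 and 180 CPM in the Sst line. All 4 cells with under 5 Ntrk3 reads were of the Htr3a line, and both cells at 100 CPM or more were of the Sst line, but in between the lines overlapped, with 5 cells each at 10 CPM or more. The difference of mean log2(CPM + 1) was 0.22 (1.41 ± 2.43 against 1.64 ± 2.70), and 0.45 without Htr3a line replicate 5. Its sign rested on single cells: it was -0.03, -0.003 and -0.04 without Sst line replicates 13, 16 and 20 in turn. The log2 ratio of summed CPM was 0.80 and stayed positive with each cell left out, between 0.30 and 1.20.

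Bdnf (chromosome 2, 109674700 to 109727007, plus strand) had 252 reads, 13.5 CPM, in 1 cell, Htr3a line replicate 10, and none in the other 45. The absence of reads in the Sst line allows up to 13% of its cells. The cell with Bdnf had the highest summed level of glutamatergic markers of all cells (274 CPM) and the lowest GABAergic sum (293 CPM). Its Neurod6 (92.4 CPM), Slc17a6 (52) and Neurod2 (49.3), genes of excitatory neurons, ranked first of 46, Tbr1 (23.8 CPM) the third, Slc17a7 had 4 reads and Fibcd1 none. Sst stood at 39594 CPM in the same cell, rank 6. Bdnf is known from hippocampal excitatory neurons, and the part of these transcripts in its detection was not tested. Of its exons, 896 bases (14.4%) lie opposite the antisense gene Gm45346.

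**Figure D3:**
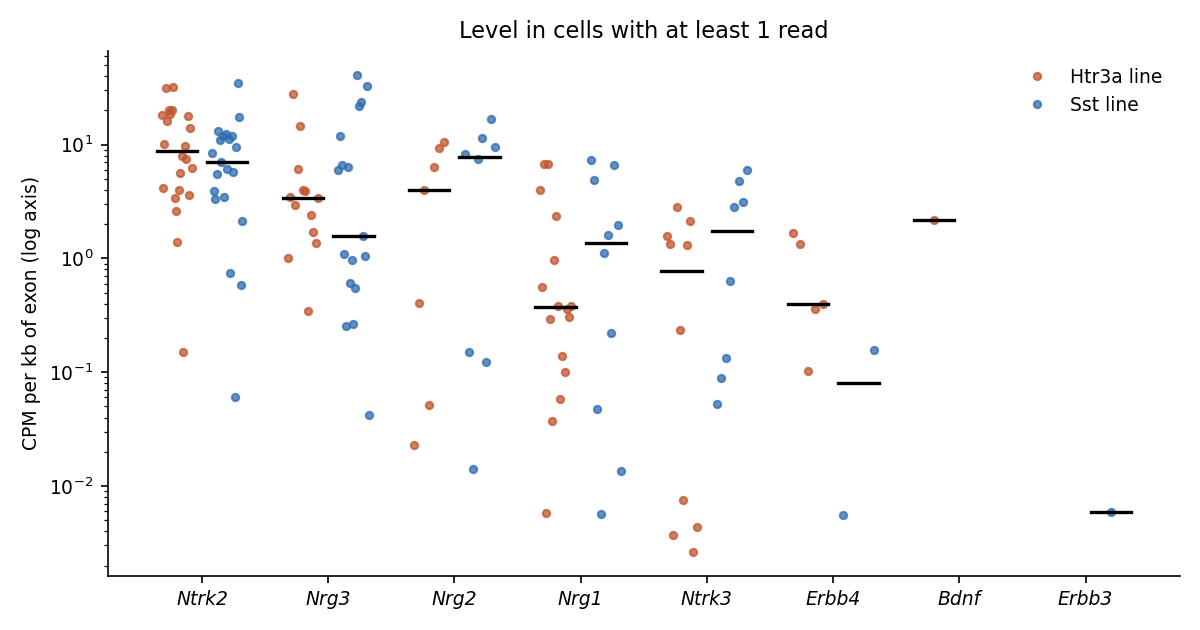
Points are cells with at least 1 read, placed by CPM per kb of exon on a log axis, and black bars are medians of a line. The points of the lines intermix for Ntrk2, Nrg3, Nrg2, Nrg1 and Ntrk3, while for Erbb4 most Htr3a-line points lie above both Sst-line ones. Ntrk2 has reads in the most cells, and the highest point is an Nrg3 one of the Sst line.

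Levels were compared between genes as CPM per kb of exon, the union of all annotated exons of a gene, which counts long untranslated regions and rare exons in full. The mean over 46 cells ran from Ntrk2 (9.49 ± 8.64, SD) to Nrg3 (5.0 ± 9.47), Nrg2 (1.83 ± 4.01), Nrg1 (1.03 ± 2.09), Ntrk3 (0.590 ± 1.33), Erbb4 (0.0880 ± 0.319), Bdnf (0.0474 ± 0.321) and Erbb3 (0.000128 ± 0.000867). Each difference between neighbours in this order was smaller than the SD of the higher gene, although that between Ntrk3 and Erbb4 (0.502) exceeded the SD of Erbb4, and that between Bdnf and Erbb3 (0.0472) the SD of Erbb3. Cell by cell, Ntrk2 was above Nrg3 in 35 cells and below it in 10, and Nrg3 above Nrg2 in 23 and below in 10. Nrg2 had the higher mean per kb but lay above Nrg1 in only 10 cells and below it in 22. By CPM not divided by length the order of means differed: Ntrk2 183, Nrg3 34.1, Ntrk3 17.8, Nrg1 10.7 and Nrg2 5.75. Per kb of exon, Ntrk2 was the highest of the 8 genes in 31 cells (18 of the Htr3a and 13 of the Sst line), Nrg3 in 8, Nrg2 in 4 and Ntrk3 in 2.

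Per kb of exon, Nrg1 was low for how often it was found. Of 266 genes that also had reads in exactly 26 cells, 3.01% had a lower mean CPM per kb than Nrg1, and their median was 7.63 against its 1.03. The same share was 6.85% for Erbb4, 7.0% for Ntrk3 and 10.9% for Ntrk2, but 28.3% for Nrg3 and 34.1% for Nrg2. On this scale Nrg2 and Nrg3 were thus nearer the middle of genes found as often. Their exons summed to 3.14 kb (Nrg2) and 6.82 kb (Nrg3). Those of the lower genes were longer: 10.4 kb for Nrg1, 12.4 for Erbb4, 19.3 for Ntrk2 and 30.2 for Ntrk3. The genes compared were not matched on length, and the part of length in these shares was not tested.

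At least 1 of the 3 neuregulin genes was read in 38 of 46 cells, 19 in each line. Nrg1 with Nrg3 was the most frequent combination (12 cells), then all 3 genes (7), Nrg3 alone (6), Nrg1 alone and Nrg2 with Nrg3 (5 each), Nrg1 with Nrg2 (2) and Nrg2 alone (1). Of the 5 cells with Nrg1 alone, 4 were of the Htr3a line, and of the 6 with Nrg3 alone, 4 were of the Sst line. One gene often dominated within a cell. In the 26 cells with several neuregulin genes, the highest took a median of 89.9% of their summed CPM per kb. It took over 90% in 12 of them, but 38.2% in Sst line replicate 1 and 49.2% in Htr3a line replicate 7. In some cells over 90% the other gene had a single read, as Nrg2 did in Htr3a line replicate 2 (99.4%). Per kb of exon, Nrg3 was the highest neuregulin gene in 20 cells, 10 in each line, Nrg1 in 10 and Nrg2 in 8.

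The 7 cells with Erbb4 all had reads of its ligand genes. Each also had reads of Nrg1 and of Nrg3 (100%, 59.0% to 100%), against 19 of 39 (48.7%, 32.4% to 65.2%) and 23 of 39 (59.0%, 42.1% to 74.4%) of the cells without Erbb4. The intervals of these shares overlapped. Of the 7 cells, 5 were of the Htr3a line. Among cells without Erbb4, Nrg1 was read in 11 of 18 Htr3a-line and 8 of 21 Sst-line cells, and Nrg3 in 8 of 18 and 15 of 21. A restriction kept the 23 cells with at least the median of 7050.5 genes read, 14 of the Htr3a and 9 of the Sst line. They still hold all 7 Erbb4 cells, and the share without Erbb4 was 9 of 16 for Nrg1 (56.2%) and 12 of 16 for Nrg3 (75%). With a minimum of 5 reads for both genes, 5 of 6 Erbb4 cells had Nrg1 and 6 of 6 had Nrg3. Only 2 cells had Erbb4 at 10 CPM or more, Htr3a line replicates 5 and 10, of which 1 had Nrg1 and both had Nrg3 at that level. Nrg2 was read in 3 of the 7 and in 12 of the 39 others.

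Ntrk3 was read in 14 of 26 cells with Nrg1 (53.8%, 33.4% to 73.4%) and in 4 of 20 without it (20%, 5.73% to 43.7%), with overlapping intervals. In the 23 cells with more genes read these counts were 9 of 16 and 2 of 7. All 18 cells with Ntrk3 also had Ntrk2, as did 25 of 28 cells without Ntrk3 (89.3%). Nrg3 was read in 19 of 26 cells with Nrg1 and 11 of 20 without, and in 12 of 15 cells with Nrg2 (80.0%) and 18 of 31 without (58.1%). The Nrg2 pairing changed direction among cells with more genes read, where Nrg3 was found in 9 of 12 cells with Nrg2 (75%) and 10 of 11 without (90.9%). Cells with reads of any of these genes had more genes read at the median: 7468 with against 6538 without Nrg1, 8250 against 6569 for Nrg2, 7978.5 against 5837.5 for Nrg3, and 7265 against 6538 for Ntrk3, although within the Htr3a line the Ntrk3 values were 8007 and 8203. The part of gene number in co-detection was not tested beyond that restriction.

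**Figure D4:**
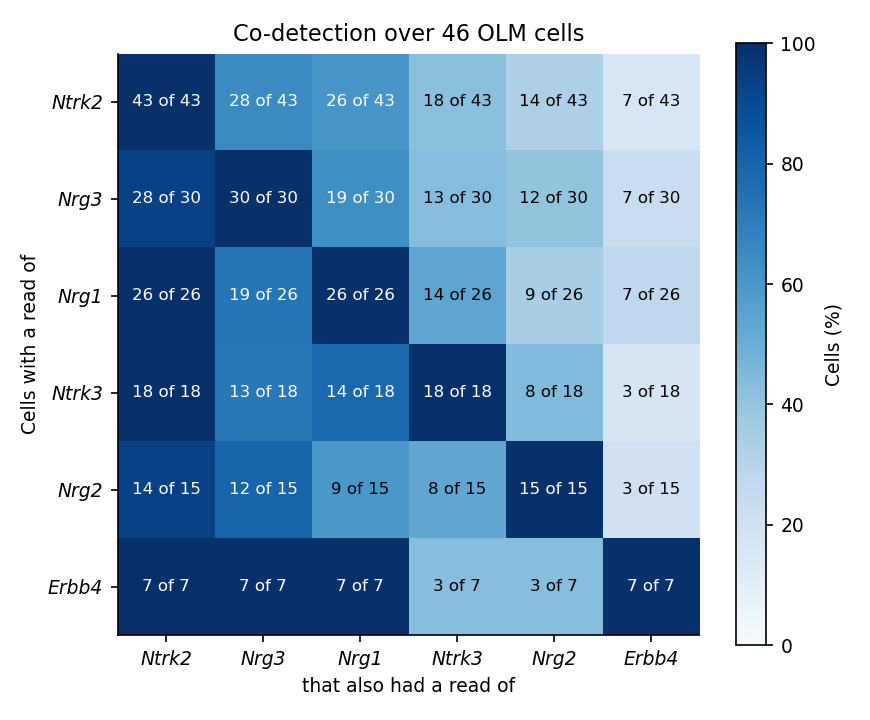
Each square gives, of the cells with a read of the gene in its row, how many also had a read of the gene in its column, and the colour the percentage. The Erbb4 row shows 7 of 7 for Ntrk2, Nrg3 and Nrg1 and 3 of 7 for Ntrk3 and Nrg2, while the Erbb4 column stays at 7 or fewer cells in each row.

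Over the 46 cells, the highest Spearman correlations of log2(CPM + 1) among the 6 genes with reads in more than 1 cell were 0.35 for Erbb4 with Nrg3, 0.33 for Erbb4 with Nrg1 and 0.32 for Nrg1 with Ntrk3, and the others lay between -0.14 and 0.26. In counts as sparse as these, correlations of this size are no finding. Among 10003 other genes read in at least 12 cells, the 3 most like Ntrk2 were Epha5, an ephrin receptor gene (0.61), Ndfip2 (0.56) and Slc24a3 (0.55). Those most like Nrg3 were Me1 (0.61), Stag1 (0.59) and Prrg3 (0.54), and those most like Nrg1 were Zfp653 (0.59), Mal2 (0.56) and Tmem216 (0.55). For Nrg2 they were Snx29 (0.64), Kctd5 (0.60) and Dis3 (0.59), and for Ntrk3 Dclk2 (0.57), Stard7 (0.56) and Rspry1 (0.55). These are the top of many correlations, in which both values of a cell come from 1 library at 1 depth, and they describe these cells only.

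The line differences of the 8 genes were set against all genes. Of the 11196 genes whose mean log2(CPM + 1) reached 0.5, the Sst-line mean was the lower for 62.6% and the higher for 37.4%, the median difference was -0.22, and 19.2% differed by at least 1 in size (14.9% lower, 4.24% higher). Of the 5 genes of the group above that mean, Ntrk2 and Nrg1 were lower and Nrg3, Nrg2 and Ntrk3 higher, with a median of 0.22, and none differed by 1 or more. Nrg1, Ntrk2 and Ntrk3 were read in fewer Sst-line cells, as were 64.3% of all genes tested, and Nrg2 and Nrg3 in more, as were 19.6%, while 16.1% had equal numbers. For Nrg1 the difference of means and the ratio of summed CPM had opposite signs, as for 24.7% of all genes. Relative to the median of all genes the differences were -0.57 for Ntrk2, -0.22 for Nrg1, 0.45 for Ntrk3, 0.51 for Nrg2 and 0.87 for Nrg3. Erbb4, Erbb3 and Bdnf were below that mean, and the Erbb4 difference was -0.57 (0.64 ± 1.37 against 0.07 ± 0.32). Its CPM of summed counts was 2.29 against 0.0921. The first was 1.47 without Htr3a line replicate 10 and 1.5 without replicate 5, and the second 0.00284 without Sst line replicate 8. Size factors from DESeq2 moved the median of all genes by 0.16, to -0.06, and relative to it the values were -0.52 for Ntrk2, -0.02 for Nrg1, 0.31 for Ntrk3, 0.25 for Nrg2 and 0.60 for Nrg3.

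Other genes of the pathways, 83 in 6 lists, are described beside the shares of all genes. Above the same mean were 65, of which the Sst line had 41 at a lower and 24 at a higher mean, with a median of -0.30. That is 63.1% lower, against 62.6% of all genes. A difference of at least 1 in size was found for 19 of the 65 (29.2%, against 19.2% of all genes), 13 of them lower (20%, against 14.9%) and 6 higher (9.23%, against 4.24%).

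The other ErbB receptors and ligands were sparse: Erbb2, the co-receptor of ErbB3 and ErbB4, was read in 3 cells and Egfr, the founding receptor of the family, in 1. Btc, Ereg, Areg and Epgn, ligand genes, were not read at all, which allows up to 6.52% of 46 cells. The ligand genes Nrg4 (16 Htr3a-line and 15 Sst-line cells, difference 0.10) and Hbegf (13 and 10 cells, -0.56, and -0.31 without Htr3a line replicate 12) were read more widely. The Nrg4 difference turned to -0.08 without Sst line replicate 16.

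Of 9 proteases and secretase subunits that process neuregulins, 8 were lower in the Sst line and 1 higher, 2 of them lower by at least 1, where 62.6% of all genes were lower and 14.9% lower by at least 1. Bace1, the beta-secretase that cuts Nrg1, had reads in 20 cells of the Htr3a and 16 of the Sst line, with a difference of mean log2(CPM + 1) of -1.31 (5.11 ± 3.05 against 3.80 ± 3.28) and a log2 ratio of summed CPM of -0.80. Adam10, a metalloprotease sheddase, was read in 14 and 7 cells, with -2.05 (3.26 ± 2.98 against 1.22 ± 2.50) and a ratio of -0.76. Ncstn, a gamma-secretase subunit, was the higher one, in 19 and 20 cells with 0.48, which was 0.22 without Htr3a line replicate 18. Adam10 and Bace1 lay at the lower end of the list, whose median was -0.30.

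Among 10 ErbB scaffolds and negative regulators, 7 were lower and 3 higher, with a median of -0.38. Of all genes tested, 62.6% were lower and 37.4% higher, with a median of -0.22. Rnf41, the ubiquitin ligase that targets ErbB3, had reads in 18 cells of the Htr3a and 8 of the Sst line, with -2.64 (4.85 ± 2.78 against 2.21 ± 3.17) and a log2 ratio of summed CPM of -1.15. Erbb2ip, a scaffold of ErbB2, was read in 11 and 6 cells with -1.0, while its log2 ratio of summed CPM was -0.15 and ranged from -1.89 without Sst line replicate 21 to 0.30 without Htr3a line replicate 3. Lrig2, a membrane protein gene, was read in 9 and 11 cells with 0.90 and a ratio of 2.15.

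The neurotrophin side was similar in its sparse ligands. Ntf3, the ligand gene of TrkC, and Ngfr, which encodes the p75 receptor, were each read in 1 cell, and Ntf5 in 2, all of the Htr3a line. Sort1, which encodes sortilin, a sorting receptor that binds proneurotrophins, had reads in 18 cells of the Htr3a and 13 of the Sst line with a difference of -1.71 (4.01 ± 3.03 against 2.30 ± 2.59) and a log2 ratio of summed CPM of -0.88. Sorcs2, a relative of sortilin, had -0.26 (7 and 6 cells), which came to 0.001 without Htr3a line replicate 17, and a ratio of -1.19. Ngfrap1, named for its binding to p75, was read in 22 and 23 cells with 0.25, and with -0.15 without Htr3a line replicate 20. Its ratio of summed CPM had the opposite sign, -0.29, and lay between -0.50 and -0.06 when single cells were left out.

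Trk adaptors split evenly, with 9 of 19 lower and 10 higher, 3 by at least 1 in each direction, and a median of 0.00. Of all genes tested, 62.6% were lower and 37.4% higher, and 14.9% were lower and 4.24% higher by at least 1. Frs2, which docks on activated Trk receptors, had reads in 18 cells of the Htr3a and 7 of the Sst line with -2.25 (3.16 ± 2.74 against 0.91 ± 1.79) and a log2 ratio of summed CPM of -2.45. Shc1, an adaptor at the same receptor site, went the other way, in 5 and 11 cells with 1.96 (0.43 ± 1.10 against 2.40 ± 2.97) and a ratio of 3.88. Kidins220, a membrane scaffold of Trk receptors, had -1.48 (22 and 17 cells), while its log2 ratio of summed CPM was -0.06 and became 0.09 without Htr3a line replicate 4. Of 22 genes of the shared kinase cascades 14 were lower and 8 higher, where 62.6% of all genes were lower and 37.4% higher. The largest in size were the kinase genes Pdpk1 (18 and 12 cells, -1.93) and Map2k1 (21 and 15 cells, -1.92) and the phosphoinositide 3-kinase subunit gene Pik3r2 (18 and 13 cells, -1.80). Their log2 ratios of summed CPM were smaller, -0.73, -0.84 and -1.15. The SDs between cells of these 6 genes were 1.10 to 3.63, and those with a negative difference were read in fewer Sst-line cells.

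**Figure D5:**
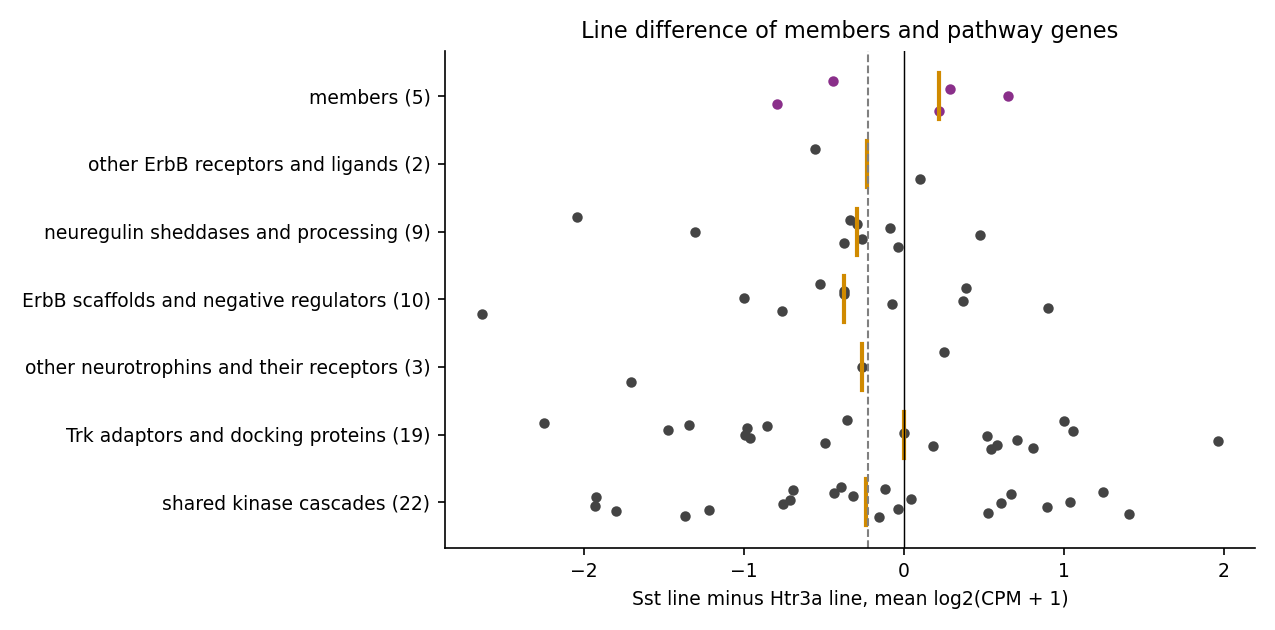
Points are genes whose mean log2(CPM + 1) reached 0.5, placed by the Sst-line mean minus the Htr3a-line mean, in rows for the 5 genes of the group above that mean and for 6 pathway lists (number of genes in brackets). Orange bars are medians of a row and the dashed line the median of all genes tested, -0.22. The group spans -0.80 to 0.65 and no point of it reaches 1 in size.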

How the data were processed

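The libraries were single-cell RNA sequencing of cytosol from 46 cells, 23 per driver line. The authors deposited raw read counts per gene, by symbol and by Ensembl identifier (22880), and a normalized table. Per the submitters' processing notes, the tools were Trimmomatic, STAR and featureCounts and the build GRCm38, while the versions, annotation and use of strand are not given in the sources used. The deposited normalized table is a linear signal: dividing the counts of a cell by 1 factor (0.144 to 2.09 over cells) gave 100% of the non-zero values to within 0.1%.

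Counts by symbol, identical to those by identifier for 8 of 8 genes, were scaled to 1000000 per cell (CPM) and taken as log2(CPM + 1). Line differences are the Sst-line mean minus the Htr3a-line mean, and a size of 1 was the fold used. Shares carry exact Clopper-Pearson 95% intervals, and where no cell had a read the limit was 3 cells, which bounds detection and not expression. Molecular identifiers are not mentioned, so amplified copies may be counted repeatedly. Coordinates, exon lengths and overlaps came from the GENCODE annotation of GRCm38. Between 0 and 0.637% of the 31-base words of a gene also occur in other genes. No 2 cells were identical.

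The genes and lists were chosen with earlier results of these data known. Named were the 8 genes, up to 3 genes per pathway list with the largest line difference in size, and the 3 most like each of the 5 genes above the minimum mean of 0.5 by Spearman correlation, all with at least 12 positive cells. Genes of lists outside that rule, and the markers named beside a result, were chosen after their values were seen. Some genes of the lists and marker sums are not reported here by name. Erbin and Bex3 were matched as Erbb2ip and Ngfrap1. Alternatives were at least 5 reads or 10 CPM, thinning to 5000000 reads (1 shallower Htr3a-line cell left out), a pseudocount of 10, edgeR 4.0.16 TMMwsp and DESeq2 1.42.0 poscounts factors, the deposited normalized values, summed CPM with 1 added to each sum, the table by identifier, no minimum mean and each cell left out. Chosen after seeing the data were a GABAergic sum of at least 1000 CPM, which kept 20 Htr3a-line and 22 Sst-line cells, and cells with at least the median number of genes read. Calculations ran in Python 3.11.15 (pandas 2.3.3, scipy 1.17.1) and were tested on simulated data.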

Additional observations from a re-analysis of the deposited data

How the results depend on the processing

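The signs of the differences of the 5 genes above the minimum mean were kept under a pseudocount of 10, other size factors, the deposited values, thinning and the table by identifier. By the log2 ratio of summed CPM, Nrg1 was at 0.04, so 1 of 5 genes was lower instead of 2, Erbb4 was at -1.59 and Bdnf at -0.79. Leaving out single cells, between 2 and 3 of the 5 were lower, since Ntrk3 crossed 0, and the Ntrk2 difference ranged from -1.11 to -0.52, Nrg1 from -0.66 to -0.25, Nrg2 from 0.08 to 0.48, Nrg3 from 0.43 to 0.88 and Erbb4 from -0.64 to -0.40. At 10 CPM or more the share of cells in the Htr3a and Sst lines was 8.70% and 0% for Erbb4 and 21.7% each for Ntrk3. For Nrg1 it was 21.7% and 26.1% and for Nrg3 43.5% and 39.1%, the reverse of the line order at 1 read. Nrg1 with Nrg3 stood at 8 cells and all 3 neuregulins at 2 with a minimum of 10 CPM. Erbb3 was at 0% of Sst-line cells at 5 reads, at 10 CPM and after thinning. Ntrk2 was at 100% of Htr3a-line cells after thinning and also with the GABAergic minimum. Both settings left out Htr3a line replicate 20, the only cell of that line without Ntrk2, so this outcome was fixed. The GABAergic minimum took Bdnf to 0% because it left out Htr3a line replicate 10, the only cell with Bdnf. Pathway genes lower in the Sst line numbered 36 to 50 and higher ones 22 to 29. The median over all genes tested was -0.22, and -0.06 with a pseudocount of 10, -0.26 by TMMwsp, -0.19 for deposited values and -0.30 after thinning. No paired analysis was possible because the labels give no numbers that pair cells across lines and no test was made. Depth limits shares of genes at 1 to 4 reads, and amplified reads are not independent molecules.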
